A study of Mus musculus with 20 samples.

Results

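Carcinomas labelled mixed were compared with carcinomas labelled undifferentiated or spindle cell carcinoma, 9 of the 20 arrays of the series. A mixed tumor holds differentiated and undifferentiated areas in one mass, whereas undifferentiated and spindle cell are names for carcinomas whose histology shows little or no squamous differentiation. The 4 mixed and 5 undifferentiated/spindle tumors were taken by their histological label alone, and all were skin tumors of FVB mice. The mice had lost *Trp53* in stratified epithelia by Cre-loxP deletion (Trp53ΔEC), and those of the second genotype had lost *Rb1* in the same cells as well (RbΔEC; Trp53ΔEC). Mixed tumors 1 to 3 came from Trp53ΔEC mice and mixed tumor 4 from an RbΔEC; Trp53ΔEC mouse. Among the undifferentiated/spindle tumors, 1 (spindle cell) and 2 (undifferentiated) were Trp53ΔEC, and 3 (spindle cell), 4 and 5 (undifferentiated) were RbΔEC; Trp53ΔEC. Another 6 tumors were poorly differentiated squamous carcinomas of both genotypes, used below as a second point of reference. The 5 arrays of skin from wild type mice of 2 months were left out of the tests, except for an alternative fit of all 20 arrays. Ages of the tumor-bearing mice are not in the labels, nor is the number of mice behind the tumors, and p-values here describe only how far these samples spread, which may in part be technical. The driver of Cre deletes the genes in epithelial cells, and the stroma of a tumor keeps them.

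In stratified epithelium, basal keratinocytes hold to each other through desmosomes, adherens junctions and tight junctions and to the basement membrane through hemidesmosomes. In an epithelial-mesenchymal transition (EMT), factors of the Snail, Zeb and Twist families repress genes of these junctions, and cells take on vimentin, N-cadherin and a migratory form. Spindle cell carcinoma is the textbook end of this route in skin. Each value given here is a log2 expression value of 1 probeset a gene on an Affymetrix array, where a difference of 1 is 1 step of the log2 scale, and levels of different genes are not compared. Differences are mixed minus undifferentiated/spindle, with the standard error (SE) of limma, and a gene was called at a Benjamini-Hochberg adjusted p under 0.05 over all 18193 genes.

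The tumors were checked against keratinocyte markers first. Keratin *Krt14*, which marks basal keratinocytes, read 12.02, 10.25, 10.89 and 8.85 in mixed tumors 1 to 4. In undifferentiated/spindle tumors 1 to 5 it read 4.71, 11.38, 9.16, 5.18 and 4.43. The groups overlapped, because undifferentiated/spindle tumors 2 and 3 kept *Krt14*, and the difference of 3.53 ± 1.49 (SE) was not called (adjusted p = 0.172), although it passed without undifferentiated/spindle tumor 2. *Trp63*, the master regulator of the basal layer, read 11.35, 9.78, 8.85 and 3.80 in the mixed tumors against 3.78, 6.80, 6.27, 4.90 and 3.68. Mixed tumor 4 was thus as low in *Trp63* as the lowest tumors of the other class, and the difference of 3.36 ± 1.42 was not called (adjusted p = 0.172) except, of the single exclusions, without mixed tumor 4. Suprabasal and cornified genes, the program of differentiating epidermis, gave 0 called members of 33 measured, also 0 at an unadjusted p under 0.05 and 0 by the equal-variance test that the study names (the methods' t-test), with a median difference of -0.01. Their mean level was highest in undifferentiated/spindle tumors 2 and 3 and mixed tumor 3, at 6.90, 6.42 and 6.73, against 4.76 to 5.69 in the other 6 tumors. In the poorly differentiated tumors it was 9.19 to 10.89. Of all genes 4.44% were called higher and 6.53% lower, so a list of this size would hold few calls and the count of 0 says little. So basal markers were not uniformly high in the mixed tumors, and mean levels of cornified genes overlapped between the 2 classes compared. The labels are kept here as names of the samples.

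Gene expression nevertheless differed between the classes on average. The mean Pearson distance (1 minus the correlation over all genes) was 0.0983 between classes and 0.0507 within them. The difference of 0.0476 was the largest of all ways of splitting the 9 tumors into 4 and 5, which gives the smallest p possible (one-sided exact permutation test, p = 0.00794). The mixed tumors were further apart among themselves (6 pairs, mean 0.0798, range 0.0503 to 0.114) than the undifferentiated/spindle tumors (10 pairs, mean 0.0332, range 0.0248 to 0.0425). The within-class mean pools both, so their unequal spread enters the tested difference. The 20 pairs between classes ranged from 0.0823 to 0.119 and overlapped the mixed pairs. Mixed tumor 1 lay nearer to undifferentiated/spindle tumor 5 (0.0823) than to mixed tumor 2 (0.0862). Of the 18193 genes, 1996 were called. Higher in the mixed tumors were 808 genes (4.44%), and 1188 were lower (6.53%). Values of the classes did not overlap at all for 1069 genes above (5.88%) and 1488 below (8.18%), and 712 (3.91%) and 1102 (6.06%) of these were also called. By probeset, 1472 of 45037 were higher (3.27%) and 2197 lower (4.88%).

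RNA quality also differed. The 3′ minus 5′ signal of the *Actb* control probesets was 0.383 to 0.660 in the mixed and 0.241 to 0.382 in the undifferentiated/spindle tumors, and that of *Gapdh* was -0.052 to 0.181 against -0.101 to 0.013. Its part in the results below was not tested. Array medians were 5.71 to 5.73 against 5.65 to 5.71. *Rb1* read 7.85, 8.26 and 8.46 in mixed tumors 1 to 3 and 6.55 in mixed tumor 4, from an RbΔEC; Trp53ΔEC mouse, but 8.14, 8.03 and 8.02 in undifferentiated/spindle tumors 3 to 5 of the same genotype, against 7.86 and 7.93 in the Trp53ΔEC tumors of that class. In the undifferentiated/spindle class the *Rb1* level therefore did not tell the genotypes apart. *Trp53* was not analysed here.

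Genes of EMT were lower in the mixed tumors. Among the 9 EMT genes that the study names, 6 were lower (66.7%, beside 6.53% of all genes) and 0 higher. Their median difference was -1.89, where the median over all genes was -0.01. The study picked these genes, and its epithelial genes below, for a difference between undifferentiated/spindle and poorly differentiated tumors of the same arrays, so their direction here is not independent evidence. The count of EMT genes stayed at 6 with any 1 tumor left out, with genotype as a covariate and by the methods' t-test. It was 4 without undifferentiated/spindle tumors 2 and 3, 2 by the unequal-variance test and 0 with Trp53ΔEC tumors only. The transforming growth factor receptor *Tgfbr2* read 10.73, 10.24, 10.61 and 10.48 in the mixed tumors and 12.39, 12.19, 12.04, 12.00 and 11.93 in the others. All mixed tumors lay lower, by 1.60 ± 0.14 (adjusted p = 0.000388). The metalloprotease *Adam19* read 8.18, 6.79, 6.70 and 6.90 against 10.60, 10.82, 10.64, 9.48 and 10.66, with no overlap and a difference of -3.30 ± 0.37 (adjusted p = 0.00107).

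The Zeb repressors, which silence E-cadherin, were lower in every mixed tumor than in every undifferentiated/spindle tumor. *Zeb1* read 8.17, 6.20, 8.14 and 9.22 against 10.12, 10.70, 10.43, 10.45 and 10.38 (difference -2.48 ± 0.50, adjusted p = 0.0159). *Zeb2* read 6.59, 6.01, 7.14 and 7.74 against 9.89, 8.95, 8.81, 8.62 and 9.31 (-2.24 ± 0.37, adjusted p = 0.00676). Vimentin (*Vim*), the intermediate filament of mesenchymal cells, was also lower, at 12.91, 11.24, 12.03 and 12.27 against 13.98, 14.26, 13.94, 13.78 and 14.08 (-1.89 ± 0.29, adjusted p = 0.00469). The endocytic adaptor *Dab2* differed by -2.47 ± 0.40 (adjusted p = 0.00615). Macrophages and endothelium express several of these genes too, among them *Vim*, *Zeb2*, *Dab2* and *Tgfbr2*. In the same tumors 17 of 20 macrophage markers were lower, with mean levels of the list at 7.68 to 8.27 against 10.05 to 10.96, as were 9 of 19 endothelial markers, at 6.20 to 7.22 against 7.06 to 8.22, and their part in these differences was not tested. With the median of its probesets *Zeb1* differed by -1.26 (adjusted p = 0.0275). *Snai1*, the Snail repressor, did not follow, with 5.97, 4.97, 7.99 and 9.60 against 7.98, 7.82, 7.58, 7.62 and 7.53 and a difference of -0.57 ± 0.81 (adjusted p = 0.716). Mixed tumor 4 held the highest *Snai1* value of the 9 and mixed tumor 2 the lowest. The collagen VI chains *Col6a1* and *Col6a2* differed by -1.12 ± 0.45 and -0.74 ± 0.56 and were not called (adjusted p = 0.151 and 0.456).

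Of 26 other mesenchymal genes, 9 were lower (34.6%, beside 6.53% of all genes) and 0 higher, with a median difference of -1.19. N-cadherin (*Cdh2*) was uneven among the mixed tumors, with 7.74, 7.58, 5.19 and 3.90, and read 10.35, 10.07, 9.92, 9.99 and 8.90 in the others (-3.74 ± 0.77, adjusted p = 0.0171). The receptor kinase *Axl* read 10.15, 8.48, 9.45 and 8.09 against 11.87, 12.12, 11.61, 11.46 and 14.05 (-3.18 ± 0.60, adjusted p = 0.0119, and -1.65 with the median of its probesets). The metastasis-associated calcium-binding protein *S100a4* differed by -3.80 ± 0.62 and periostin (*Postn*), a matricellular protein, by -2.50 ± 0.51 (adjusted p = 0.00615 and 0.0168). *Twist1* differed by -1.09 ± 0.27 (adjusted p = 0.0329), a call lost on leaving out any 1 tumor but mixed 2 or mixed 4 (adjusted p up to 0.0712). Without undifferentiated/spindle tumors 2 and 3 together, 3 of the 26 genes were called lower, and with Trp53ΔEC tumors only, 1.

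**Figure D1:**
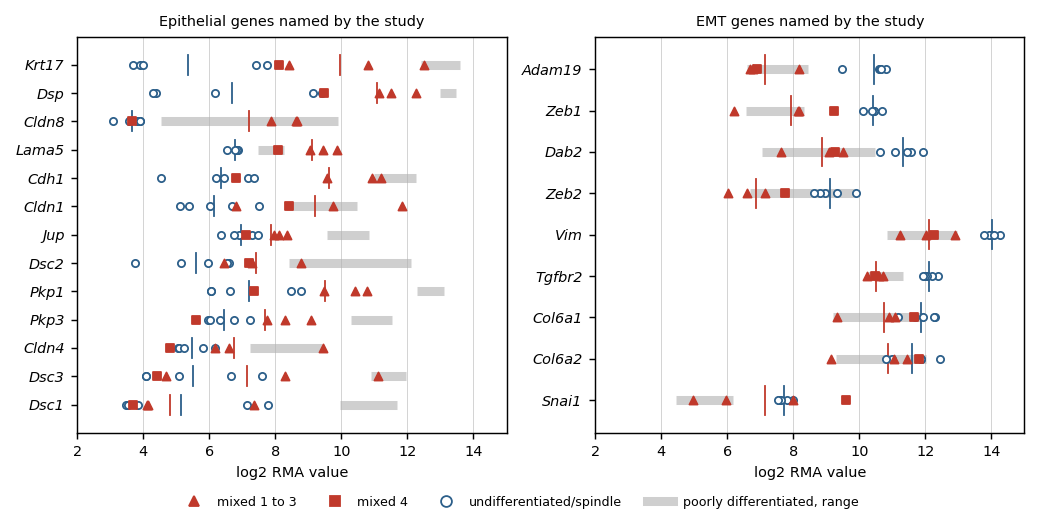
Log2 values (horizontal axis) of the epithelial genes (left) and the EMT genes (right) that the study names, 1 row a gene. Red symbols are the mixed tumors (square: mixed 4), open blue circles the undifferentiated/spindle tumors, vertical lines the class means and grey bars the range of the poorly differentiated tumors. The EMT genes from *Adam19* to *Tgfbr2* show separate classes, while *Cdh1*, *Cldn8* and the desmosomal genes other than *Dsp* overlap, with mixed tumor 4 among the undifferentiated/spindle tumors for several of them.

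Epithelial genes moved the other way, less evenly. Of the 13 epithelial genes the study names, 4 were higher in the mixed tumors (30.8%, beside 4.44% of all genes) and 0 lower. Their median difference was 2.31. Laminin α5 (*Lama5*), a chain of basement membrane laminin, read 9.45, 9.05, 9.88 and 8.07 in the mixed tumors and 6.85, 6.87, 6.53, 6.84 and 6.77 in the others (2.34 ± 0.32, adjusted p = 0.00251). Desmoplakin (*Dsp*), which ties desmosomes to keratin, read 12.26, 11.14, 11.50 and 9.47 against 6.17, 9.41, 9.13, 4.37 and 4.28 (4.42 ± 1.21, adjusted p = 0.0484). The lowest mixed tumor, 4, and the highest of the other class, undifferentiated/spindle tumor 2, were almost level. The stress keratin *Krt17* read 12.50, 8.40, 10.79 and 8.11 against 3.68, 7.41, 7.75, 3.91 and 3.98 (4.60 ± 1.22, adjusted p = 0.0436). Claudin 8 (*Cldn8*), a tight junction protein, read 8.65, 7.87 and 8.62 in mixed tumors 1 to 3 but 3.67 in mixed tumor 4, within the 3.07 to 3.91 of the other class (3.54 ± 0.94, adjusted p = 0.0435). E-cadherin (*Cdh1*), the adherens junction protein of epithelia, showed the same split, with 11.20, 10.93, 9.55 and 6.82 against 4.53, 7.16, 7.36, 6.20 and 6.45 (3.28 ± 0.93, adjusted p = 0.0549), and of the single exclusions only that of mixed tumor 4 gave a call. The call of *Lama5* held with any 1 tumor left out. Those of *Krt17* and *Dsp* were lost without undifferentiated/spindle tumor 1, 4 or 5 or mixed tumor 1 or 3, and that of *Dsp* also without mixed tumor 2, with adjusted p up to 0.107 and 0.11. That of *Cldn8* held only without mixed tumor 4 (adjusted p up to 0.112). Leaving out 1 tumor at a time gave 1 to 8 called genes among the 13, the highest count without mixed tumor 4. The genotypes are unbalanced between the classes, and with genotype as a covariate 1 gene of the 13 was called, *Lama5*, while *Krt17*, *Dsp* and *Cldn8* were not (adjusted p = 0.0898, 0.0897 and 0.0788). The methods' t-test also called 1 of the 13, as did limma without the spindle cell carcinomas. With the median of its probesets *Krt17* differed by 2.96 and *Dsp* lost its call (adjusted p = 0.0589).

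Tight junction and apical surface genes followed the same pattern, with 8 of 23 measured members higher (34.8%, beside 4.44% of all genes), 0 lower and a median difference of 1.92. Occludin (*Ocln*), a strand protein of tight junctions, read 9.21, 8.65, 6.72 and 5.58 against 3.82, 3.93, 3.97, 3.88 and 3.69 (3.68 ± 0.66, adjusted p = 0.00947). The junctional adhesion molecule *F11r* was the most even of them, at 10.94, 10.39, 10.40 and 11.15 against 8.41, 9.09, 8.66, 9.27 and 8.54 (1.92 ± 0.24, adjusted p = 0.00159). *Epcam*, an epithelial surface adhesion protein, read 11.47, 13.05, 10.54 and 6.74 against 5.70, 5.57, 6.83, 5.07 and 6.09 (4.60 ± 1.08, adjusted p = 0.0282). The protease inhibitor *Spint2* read 11.12, 11.47, 10.40 and 7.53 against 6.97, 7.28, 7.05, 6.71 and 7.21 (3.09 ± 0.71, adjusted p = 0.0251), and *Ap1m2*, the epithelial subunit of a clathrin adaptor, 9.36, 10.27, 8.57 and 6.76 against 6.60, 6.62, 6.73, 6.52 and 6.22 (2.20 ± 0.59, adjusted p = 0.0452). Mixed tumor 4 lay just below the top of the other class in *Epcam*, just above it in *Ap1m2* and above it in *Spint2*. *Tmem30b*, a lipid flippase subunit outside that list, read 10.87, 10.66, 9.17 and 7.99 against 4.46, 5.0, 5.20, 4.93 and 5.12 (4.73 ± 0.55, adjusted p = 0.00113). The calls of *Ocln*, *F11r* and *Tmem30b* held with any 1 tumor left out, and those of *Epcam*, *Spint2* and *Ap1m2* were lost when mixed tumor 1 or 3 or undifferentiated/spindle tumor 1, 2, 4 or 5 was left out (adjusted p up to 0.0685, 0.066 and 0.0994), as was the call of *Spint2* and *Ap1m2* without undifferentiated/spindle tumor 3 and of *Ap1m2* without mixed tumor 2. Over these exclusions 2 to 12 members were called, the highest count without mixed tumor 4. The other 3 called members, *Marveld2*, *Prss8* and *Pard6b*, differed by 2.17 to 2.33, and their calls were likewise lost without mixed tumor 1 or 3 or undifferentiated/spindle tumor 2 or 5 (adjusted p up to 0.0876). Those of *Marveld2* and *Prss8* were also lost without undifferentiated/spindle tumor 1, 3 or 4, and that of *Prss8* without mixed tumor 2. With genotype as a covariate 4 of the 23 were called, and *Epcam*, *Ap1m2*, *Marveld2* and *Prss8* were not (adjusted p = 0.0551, 0.0785, 0.0719 and 0.0685). The methods' t-test called 2, the unequal-variance test 1, and limma called 1 without the spindle cell carcinomas, 1 without undifferentiated/spindle tumors 2 and 3 and 2 with Trp53ΔEC tumors only. With the median of their probesets *Epcam* and *F11r* differed by 2.46 and 0.96 (adjusted p = 0.044 and 0.00551).

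Since Zeb and Snail proteins bind E-box motifs, the promoters of these genes were searched for CACCTG or its reverse complement CAGGTG in the 250 bases before the RefSeq start. The motif occurred in 17.2% of all 32851 promoters of the table. Counted by gene, it occurred in 19.9% of the 14452 tested genes with a promoter. Among these it was in 158 of 633 genes higher in the mixed tumors (25%) and in 158 of 917 genes lower (17.2%). The share to set beside the last 2 is the 19.9%. The shares were not compared by a test. A match is a string of letters and not a measured binding site, and whether Zeb or Snail proteins act on these genes was not tested. Among the promoters of called tight junction genes, *Marveld2* had 0 matches at both of its starts, *F11r* 1, *Pard6b* 2, and *Ocln* 0 at one start and 2 at the other. The 4 promoters below are shown as examples with 2 to 4 matches, chosen after their values were seen. They are RefSeq sequences of mouse build GRCm38.p6, on the strand of the gene, with the matches in capitals. *Epcam* lies at chr17:87635729-87635978 (+ strand), *Spint2* at chr7:29281978-29282227 (- strand), *Ap1m2* at chr9:21312334-21312583 (- strand) and *Tmem30b* at chr12:73546396-73546645 (- strand).
Epcam: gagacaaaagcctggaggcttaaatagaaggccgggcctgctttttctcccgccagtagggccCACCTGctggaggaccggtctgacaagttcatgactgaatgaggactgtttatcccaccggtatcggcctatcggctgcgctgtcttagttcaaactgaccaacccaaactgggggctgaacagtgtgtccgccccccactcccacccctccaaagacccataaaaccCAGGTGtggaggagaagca
Spint2: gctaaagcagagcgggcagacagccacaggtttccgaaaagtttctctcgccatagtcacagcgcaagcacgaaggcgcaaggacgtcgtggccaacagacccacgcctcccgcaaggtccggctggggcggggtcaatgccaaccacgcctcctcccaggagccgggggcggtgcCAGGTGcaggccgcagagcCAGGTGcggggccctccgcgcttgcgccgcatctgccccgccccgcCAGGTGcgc
Ap1m2: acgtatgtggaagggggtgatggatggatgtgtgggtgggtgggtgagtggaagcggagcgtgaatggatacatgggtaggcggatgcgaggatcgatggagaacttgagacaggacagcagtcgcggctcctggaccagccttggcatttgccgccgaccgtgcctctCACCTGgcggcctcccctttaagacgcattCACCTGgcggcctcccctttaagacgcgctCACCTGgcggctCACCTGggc
Tmem30b: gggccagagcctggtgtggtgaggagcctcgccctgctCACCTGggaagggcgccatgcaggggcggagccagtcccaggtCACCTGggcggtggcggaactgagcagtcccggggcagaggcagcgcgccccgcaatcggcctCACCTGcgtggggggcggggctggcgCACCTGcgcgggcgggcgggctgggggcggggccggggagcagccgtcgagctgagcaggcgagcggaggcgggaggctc
*Epcam* held 2 matches, *Spint2* 3, all in the part of the window nearest the start, and *Ap1m2* and *Tmem30b* 4 each.

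Regulators of the epithelial state gave 6 of 21 members higher (28.6%, beside 4.44% of all genes) and 0 lower, with a median difference of 1.13. The grainyhead factor *Grhl2*, which sustains E-cadherin and claudin expression, read 10.72, 9.89, 8.33 and 6.84 against 4.60, 5.83, 5.74, 5.18 and 5.29 (3.61 ± 0.71, adjusted p = 0.0136). *Esrp1*, the splicing factor of epithelial isoforms, read 10.79, 10.93, 8.86 and 6.01 against 4.05, 6.09, 6.17, 4.19 and 4.92, overlapping through mixed tumor 4 (4.06 ± 1.0, adjusted p = 0.0333). The Zeb-antagonist *Ovol2* read 6.23, 5.57, 5.58 and 5.02 against 4.12, 4.87, 4.04, 4.70 and 4.62 (1.13 ± 0.27, adjusted p = 0.0281). *Tfap2c*, *Grhl1* and *Grhl3* differed by 3.61, 2.18 and 1.34. In this list the call of *Grhl2* alone held with any 1 tumor left out, and those of *Esrp1* and *Grhl3* held only without mixed tumor 4 (adjusted p up to 0.075 and 0.121). Of the 4 probesets of *Grhl2* 1 was called, and with their median the difference was 0.85 (adjusted p = 0.0221). The unequal-variance test did not call *Grhl2* (adjusted p = 0.168). With genotype as a covariate *Grhl2* was the 1 called member, and *Esrp1*, *Tfap2c*, *Ovol2*, *Grhl1* and *Grhl3* were not called (adjusted p = 0.0638, 0.0509, 0.0586, 0.0979 and 0.0991). The methods' t-test called 1 member. Without undifferentiated/spindle tumor 1 or 5, 1 member was called, and without mixed tumor 4, 9. Without the 2 spindle cell carcinomas limma called 0, with 6 higher at an unadjusted p under 0.05. Basal and hemidesmosome genes gave 2 higher and 1 lower of 15 (13.3% and 6.67%, beside 4.44% and 6.53% of all genes). Laminin α3 (*Lama3*) read 11.95, 8.76, 10.10 and 9.03 against 5.16, 7.46, 5.90, 6.19 and 5.14 (3.99 ± 0.71, adjusted p = 0.00905, and 2.12 with the median of its probesets), while the linker protein plectin (*Plec*) was lower by 1.70 ± 0.31 (adjusted p = 0.0106). *Krt15* differed by 3.77 ± 0.93 (adjusted p = 0.0335), a call that held only without mixed tumor 4 (adjusted p up to 0.0875).

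**Figure D2:**
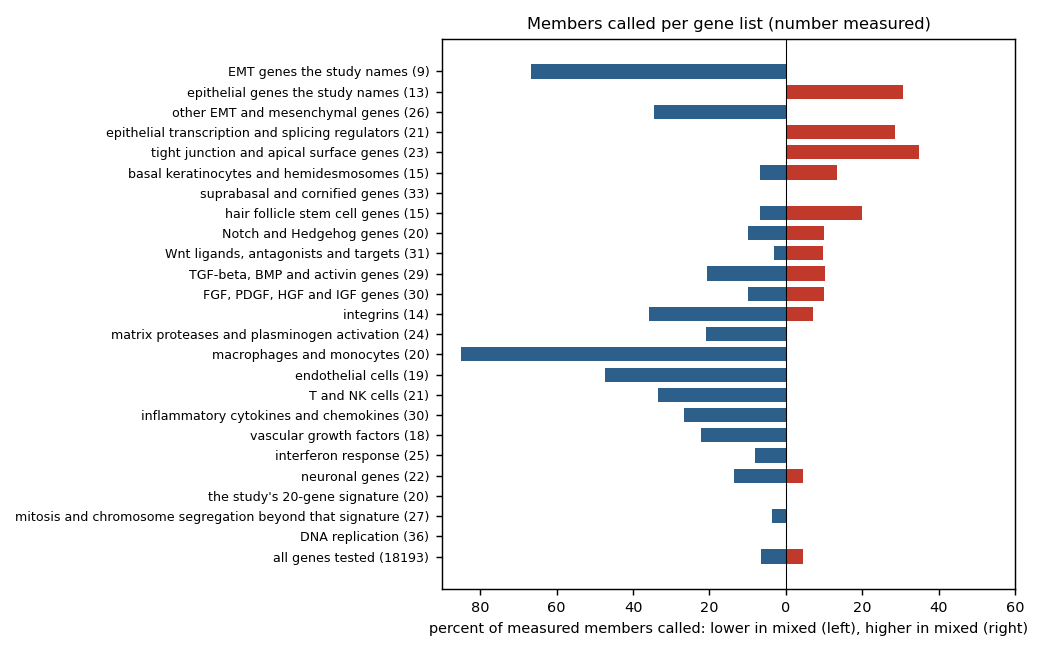
Percent of the measured members of each gene list (horizontal axis, number measured in brackets) called lower (blue, left) or higher (red, right) in the mixed tumors, with all genes tested in the last row. Macrophage genes stand out with 85.0% lower, the EMT and mesenchymal lists extend to the left, and the epithelial junction and regulator lists to the right.

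The genes with the largest differences were mostly of neither kind. *Wif1*, a secreted antagonist of Wnt ligands, read 9.09, 9.22, 10.70 and 10.27 in the mixed tumors and 2.91, 3.61, 3.37, 3.02 and 2.88 in the others. The difference of 6.66 ± 0.35 was the largest of all (adjusted p = 0.000225), and the poorly differentiated tumors lay between, from 4.24 to 7.54. The protease *Adamts20* read 9.10, 7.36, 11.25 and 10.84 against 3.46, 3.15, 3.96, 4.56 and 3.62 (5.89 ± 0.74, adjusted p = 0.00166). *Mia*, a secreted protein of cartilage and melanoma cells, read 11.44, 9.75, 10.48 and 9.31 against 4.45, 4.16, 4.61, 4.25 and 4.47 (5.86 ± 0.38, adjusted p = 0.000225). The proteoglycan *Gpc3*, which binds Hedgehog and growth factors, read 12.03, 7.43, 13.09 and 11.96 against 5.29, 5.65, 5.55, 5.13 and 5.88 (5.62 ± 0.99, adjusted p = 0.00859). Mixed tumor 2 was the lowest of its class in *Gpc3*, *Adamts20*, *Col8a2*, *Peg3*, *Matn4*, *Sostdc1* and *Smoc2* alike. *Cd24a*, a surface glycoprotein of epithelial progenitors, read 11.25, 13.10, 13.38 and 13.23 against 6.69, 7.64, 7.62, 7.50 and 6.79 (5.49 ± 0.45, adjusted p = 0.000287). The potassium channel *Kcnk1* (5.24 ± 0.31), the collagen *Col8a2* (5.24 ± 0.61), the imprinted zinc finger gene *Peg3* (5.23 ± 0.92), matrilin 4 (*Matn4*, 5.17 ± 0.61), *Shisa2* (4.94 ± 0.49), the BMP and Wnt antagonist *Sostdc1* (4.81 ± 0.95), the desmosomal cadherin *Dsg2* (4.67 ± 0.95) and the matricellular protein *Smoc2* (4.58 ± 0.88) followed, with adjusted p from 0.000225 to 0.0159. For *Dsg2* the median of the probesets differed by 2.03.

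Among the genes lower in the mixed tumors, the neurofilament gene *Nefl* read 6.46, 3.12, 3.74 and 3.29 against 10.95, 8.58, 9.71, 6.64 and 8.71 (-4.77 ± 0.94, adjusted p = 0.014). The interferon-inducible *Ifi209* read 5.93, 3.56, 3.83 and 3.92 against 9.28, 9.04, 9.01, 8.52 and 8.71 (-4.60 ± 0.45, adjusted p = 0.000544). *Dkk2*, another secreted regulator of Wnt signaling, ran opposite to *Wif1*, at 8.10, 4.41, 7.83 and 5.22 against 11.74, 10.37, 11.60, 10.62 and 10.17 (-4.51 ± 0.79, adjusted p = 0.00853). The orphan receptor *Nr2f1*, a regulator of neural crest and tumor dormancy, read 4.95, 3.73, 4.03 and 3.30 against 9.29, 8.71, 9.05, 6.94 and 8.02 (-4.40 ± 0.51, adjusted p = 0.00115). The AP-1 subunit *Fosl1*, a driver of invasive growth, read 6.67, 5.07, 5.33 and 5.03 against 9.64, 9.95, 10.07, 8.88 and 9.06 (-3.99 ± 0.39, adjusted p = 0.000544). In all of these the classes did not overlap, and mixed tumor 1 was the mixed tumor nearest to the other class for *Nefl*, *Ifi209*, *Dkk2*, *Nr2f1* and *Fosl1*. *Ccbe1*, which matures the lymphatic growth factor VEGF-C, differed by -4.50 ± 0.65 (-2.95 with the median of its probesets), the alarmin *Il33* by -4.43 ± 0.66, the retinoic acid binding protein *Crabp1* by -4.40 ± 0.82, the matrix protein *Thbs4* by -4.03 ± 0.82, the acetylcholine receptor subunit *Chrna1* by -3.95 ± 0.78 and the growth cone protein *Gap43* by -3.85 ± 0.70 (adjusted p from 0.00354 to 0.0163). *Lyve1*, a receptor of lymphatic endothelium and of some macrophages, and the macrophage receptor *Vsig4* differed by -3.91 and -3.83. Their calls depended on single tumors. With 1 tumor left out, *Lyve1* was called only without undifferentiated/spindle tumor 4 or 5 and *Vsig4* only without undifferentiated/spindle tumor 4 (adjusted p up to 0.0727 and 0.0873).

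**Figure D3:**
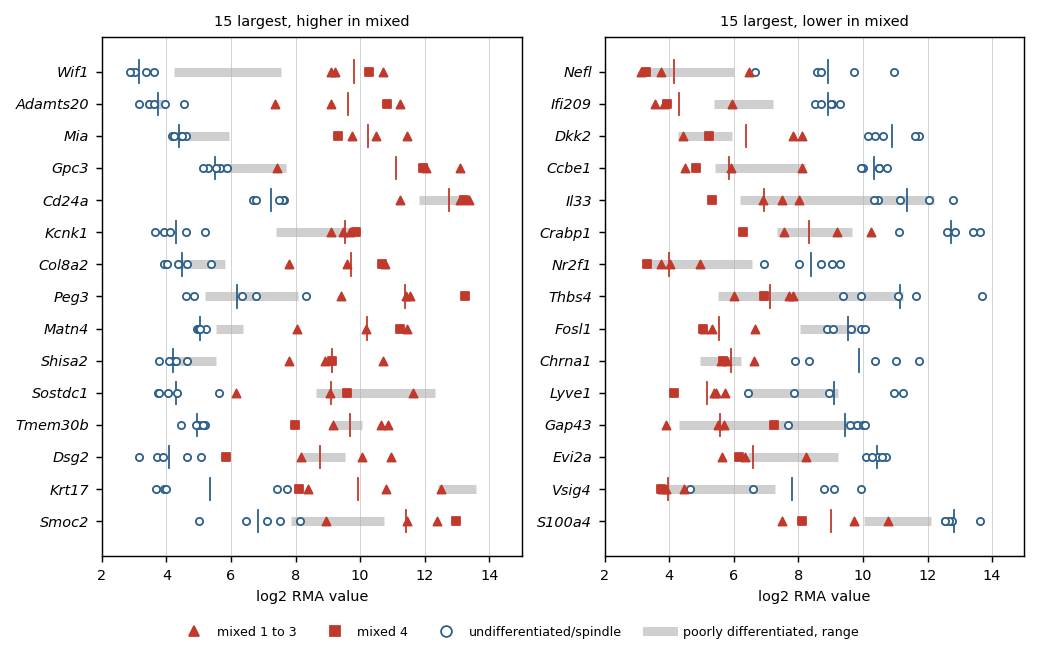
Log2 values (horizontal axis) of the 15 genes with the largest difference each way among genes called with separate classes, symbols as in the plot of EMT and epithelial genes. For every gene shown the red and blue symbols do not cross, and for *Wif1* the red symbols lie at 9.09 or above and the blue ones at 3.61 or below.

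Markers of macrophages were the most uniform group. All 20 had a lower mean in the mixed tumors, 17 were called lower (85%, beside 6.53% of all genes) and 0 higher, and the median difference was -2.63. The complement gene *C1qa*, made by tissue macrophages, read 10.28, 9.55, 9.48 and 8.73 against 12.99, 12.73, 13.03, 12.38 and 12.88 (-3.29 ± 0.28, adjusted p = 0.00035). The macrophage growth factor receptor *Csf1r* read 10.79, 10.41, 10.10 and 9.47 against 13.04, 12.87, 13.15, 12.65 and 12.39 (-2.63 ± 0.27, adjusted p = 0.000683). *Adgre1*, the classical surface marker of mouse macrophages, read 7.43, 6.42, 7.21 and 6.79 against 9.40, 9.55, 9.87, 9.36 and 9.75 (-2.62 ± 0.22, adjusted p = 0.000287). The mean level of the list was 7.68 to 8.27 in the mixed and 10.05 to 10.96 in the undifferentiated/spindle tumors, so that every mixed tumor lay below every undifferentiated/spindle tumor. In bulk tumor RNA, fewer cells of a type and less RNA per cell cannot be told apart. The mannose receptor *Mrc1* (-3.24 ± 0.40), the Fc receptor *Fcgr1* (-2.99 ± 0.30), the integrin *Itgam* (-2.93 ± 0.25), the chemokine receptor *Cx3cr1* (-2.69 ± 0.36) and the lysosomal protein *Cd68* (-2.38 ± 0.26) were also lower. The count stayed at 17 or 18 whichever single tumor was left out, was 17 without the spindle cell carcinomas and 16 without undifferentiated/spindle tumors 2 and 3, and fell to 5 with Trp53ΔEC tumors only, where 3 tumors faced 2. In the poorly differentiated tumors the mean level of the list ran from 7.49 to 10.50 and spanned both classes.

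Among 30 cytokines and chemokines 8 were lower (26.7%, beside 6.53% of all genes), 0 higher and 22 not called, with a median difference of -0.65. The monocyte attractant *Ccl2* read 8.80, 7.47, 8.24 and 7.14 against 11.15, 10.93, 10.98, 10.10 and 10.79 (-2.88 ± 0.35, adjusted p = 0.0015). The growth factor *Csf1* read 8.10, 8.41, 7.22 and 7.54 against 10.76, 9.99, 11.32, 9.89 and 10.18 (-2.61 ± 0.35, adjusted p = 0.0024). *Il33* belonged here as well, together with *Ccl7* (-2.78 ± 0.46) and the stromal chemokine *Cxcl12* (-1.75 ± 0.33). For *Cxcl12* 1 of 3 probesets was called, and with their median the difference was -0.11 (adjusted p = 0.943). Neutrophil markers gave 0 called members of 12 by limma and by the methods' t-test, and 1, higher, at an unadjusted p under 0.05.

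Of 21 T and NK cell genes, 7 were lower (33.3%, beside 6.53% of all genes) and 0 higher, with a median difference of -0.88. Granzyme B (*Gzmb*), the killing protease, read 4.91, 4.32, 4.26 and 4.09 against 6.03, 6.62, 7.73, 7.19 and 8.37 (-2.79 ± 0.44, adjusted p = 0.00531). The killer cell receptor *Klrk1* (-1.26 ± 0.21), *Nkg7* (-1.49 ± 0.30) and *Cd2* (-1.33 ± 0.25) did not overlap either. *Cd3g*, a chain of the T cell receptor complex, overlapped through undifferentiated/spindle tumor 1 at 4.28 (-1.70 ± 0.44, adjusted p = 0.0383), and was called only when that tumor was left out among the single exclusions (adjusted p up to 0.0858). The count over the list ran from 5 to 12 with 1 tumor left out. It was 1 without undifferentiated/spindle tumors 2 and 3, 2 by the unequal-variance test and 0 with Trp53ΔEC tumors only. In genes above the median level it was also 0. The mean level of the list was low, at 4.94 to 5.09 in the mixed and 5.32 to 6.29 in the undifferentiated/spindle tumors. Array medians were 5.71 to 5.73 and 5.65 to 5.71. All 25 genes of the interferon response had a lower mean in the mixed tumors, with a median of -1.70. Of them 2 were called (8%, beside 6.53% of all genes), *Oas1a* (-1.94 ± 0.40) and *Oas2* (-1.04 ± 0.14). Without mixed tumor 1, 10 were called.

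Endothelial genes were lower in 9 of 19 cases (47.4%, beside 6.53% of all genes) and higher in 0, with a median of -1.16. *Pecam1*, a junction protein of all endothelium, read 6.88, 6.41, 7.27 and 6.89 against 8.40, 8.90, 8.18, 8.07 and 7.87 (-1.42 ± 0.24, adjusted p = 0.00693). The fenestral diaphragm gene *Plvap* read 8.0, 7.60, 8.24 and 8.10 against 10.13, 10.13, 9.59, 9.49 and 8.86 (-1.65 ± 0.27, adjusted p = 0.00653). *Tie1* (-1.67 ± 0.30), *Sox17* (-1.67 ± 0.33) and *Robo4* (-1.40 ± 0.22) did not overlap either. The Notch receptor and ligand of vessels, *Notch4* and *Dll4*, differed by -1.72 ± 0.42 and -0.89 ± 0.21 and lost their calls without undifferentiated/spindle tumor 1, 2 or 4 or mixed tumor 1, 2 or 3 (adjusted p up to 0.0747 and 0.0626). The lymphatic growth factor *Vegfd* read 5.29, 4.86, 4.63 and 3.55 against 6.65, 6.86, 6.86, 8.02 and 7.68 (-2.63 ± 0.40, adjusted p = 0.00461). Its relative *Vegfc* differed by -2.74 ± 0.74 (adjusted p = 0.0454), with overlap through undifferentiated/spindle tumor 1 and a call kept only without that tumor or mixed tumor 1 (adjusted p up to 0.101). The endothelial count was 2 without the spindle cell carcinomas and also 2 without undifferentiated/spindle tumors 2 and 3.

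Of 14 integrins, the receptors for matrix, 5 were lower and 1 higher (35.7% and 7.14%, beside 6.53% and 4.44% of all genes). With genotype as a covariate 3 were lower and 0 higher. The fibronectin receptor chain *Itga5* read 7.16, 5.86, 7.11 and 7.36 against 9.86, 10.15, 9.78, 9.62 and 10.05 (-3.02 ± 0.29, adjusted p = 0.000544), and *Itgb3*, of the vitronectin receptor, differed by -1.57 ± 0.28. *Itgb8*, which activates latent TGF-β, was the 1 higher integrin (2.68 ± 0.68, adjusted p = 0.036), but mixed tumor 4 at 6.73 lay below undifferentiated/spindle tumor 4 at 7.64, and the call held only when 1 of these 2 tumors was left out (adjusted p up to 0.0911). Matrix proteases and their inhibitors gave 5 lower (20.8%, beside 6.53% of all genes) and 0 higher of 24. Among the lower were *Mmp19* (-2.92 ± 0.48), cathepsin L (*Ctsl*, -2.15 ± 0.28) and the inhibitors *Timp1* (-2.57 ± 0.51) and *Timp2* (-2.04 ± 0.30). For *Itga5*, *Itgb3* and *Ctsl* the median of the probesets differed by -1.93, -0.97 and -1.29.

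In the TGF-β, BMP and activin family, 3 members were higher and 6 lower of 29 (10.3% and 20.7%, beside 4.44% and 6.53% of all genes). *Bmp7*, an epithelial BMP, read 8.84, 7.56, 9.41 and 8.77 against 5.48, 5.78, 5.85, 6.08 and 5.82 (2.84 ± 0.33, adjusted p = 0.00112). The BMP antagonist *Grem1* was lower, at 8.77, 5.60, 6.40 and 7.13 against 9.89, 9.64, 9.35, 11.15 and 11.28 (-3.29 ± 0.66, adjusted p = 0.0157). The activin subunit *Inhba* (-2.07 ± 0.30), the latency protein *Ltbp1* (-2.04 ± 0.20) and the TGF-β-induced matrix protein *Tgfbi* (-2.33 ± 0.45) were lower, and the BMP receptor *Bmpr1a* was higher (1.16 ± 0.25). By the median of its probesets *Ltbp1* was not called (-0.81, adjusted p = 0.0972), and by theirs *Inhba* differed by -1.06 and *Bmp7* by 4.44. Among growth factors, *Fgfr2*, whose epithelial isoform answers to stromal FGF, read 9.97, 8.51, 9.84 and 10.69 against 5.93, 6.89, 6.39, 7.01 and 6.32 (3.25 ± 0.41, adjusted p = 0.00189). *Erbb2*, a receptor of the EGF family, was higher by 1.42 ± 0.23 (adjusted p = 0.00656), while the ligand epiregulin (*Ereg*) differed by -3.65 ± 0.82 (adjusted p = 0.0236), a call lost without undifferentiated/spindle tumor 1 or 3 or mixed tumor 3 or 4 (adjusted p up to 0.0585). In the Wnt list 3 were higher and 1 lower of 31 (9.68% and 3.23%, beside 4.44% and 6.53% of all genes). These counts are too small to read as a result about the list. Its receptor *Lgr4* was even across each class, at 10.49, 10.04, 10.14 and 9.88 against 7.48, 7.62, 7.54, 7.03 and 7.50 (2.70 ± 0.17, adjusted p = 0.000225, and 1.34 with the median of its probesets).

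Few genes of cell division were called, where 4.44% of all genes were higher and 6.53% lower. At those shares lists of this size would hold few calls, so the counts alone say little about the lists. The study's 20-gene signature had 0 called members of 20 by limma, 1 at an unadjusted p under 0.05 and 0 by the methods' t-test, with a median difference of 0.06. The further mitosis genes gave 0 higher and 1 lower of 27. DNA replication gave 0 of 36 by limma and by the methods' t-test, with 3 higher and 2 lower at an unadjusted p under 0.05. Mean levels of the 20 genes were 9.54 to 10.01 in the mixed and 9.21 to 10.17 in the undifferentiated/spindle tumors.

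Hedgehog genes set 1 mixed tumor apart from the other 3. In this pathway the ligand relieves the block that the receptor *Ptch1* puts on signaling, Gli factors switch on targets, and *Ptch1*, *Hhip* and *Gli1* are themselves targets, and the pathway drives hair follicle growth and basal cell carcinoma. *Ptch1* read 13.53, 8.96, 12.84 and 13.80 in the mixed tumors and 8.31, 8.25, 7.73, 8.06 and 8.20 in the others. Mixed tumors 1, 3 and 4 stood far above every undifferentiated/spindle tumor, whereas mixed tumor 2 was nearest to that class. The difference was 4.17 ± 0.88 (adjusted p = 0.0187, and 0.0532 without mixed tumor 3). *Gli1* read 12.47, 4.05, 8.52 and 13.98 against 4.37, 4.89, 4.81, 4.71 and 4.66 (5.06 ± 1.73, adjusted p = 0.0986). *Hhip*, a decoy receptor, read 11.38, 4.43, 11.78 and 12.47 against 4.61, 4.68, 7.18, 4.36 and 4.81 (4.89 ± 1.55, adjusted p = 0.079). *Gli2* read 9.89, 6.14, 13.97 and 10.96 against 8.03, 8.47, 8.02, 8.39 and 8.05 (2.05 ± 1.26, adjusted p = 0.349). Mixed tumor 2 was at or below the undifferentiated/spindle range in all 3. Of the single exclusions, only that of mixed tumor 2 gave a call of *Gli1*, *Gli2* or *Hhip*. The survival gene *Bcl2*, a known Gli target, read 8.74, 9.46, 13.21 and 11.16 against 7.65, 7.64, 7.82, 7.91 and 7.31 (2.98 ± 0.78, adjusted p = 0.0418), with the call lost without mixed tumor 4 or any 1 undifferentiated/spindle tumor (adjusted p up to 0.0915). The whole list of 20 Notch and Hedgehog genes gave 2 higher (*Ptch1* and the Notch target *Hes1*, 1.62 ± 0.29) and 2 lower (*Notch4* and *Dll4*). That is 10% each way, beside 4.44% and 6.53% of all genes, too few calls to read as a result about the list. *Ptch1*, *Bcl2* and *Notch4* were not called with the median of their probesets (adjusted p = 0.0624, 0.0819 and 0.55).

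Of 15 genes of hair follicle stem cells 3 were higher and 1 lower (20% and 6.67%, beside 4.44% and 6.53% of all genes). When mixed tumor 2 was left out, 8 were higher. The Wnt receptor *Fzd7* read 11.64, 11.06, 9.89 and 9.90 against 8.54, 7.26, 6.85, 7.97 and 8.47 (2.81 ± 0.48, adjusted p = 0.00774), and the stem cell factor *Nfib* differed by 1.96 ± 0.38 (adjusted p = 0.0132). *Lhx2*, which keeps follicle stem cells quiet, read 11.55, 3.21, 8.99 and 7.39 against 3.0, 3.53, 3.96, 5.14 and 4.14 (3.83 ± 1.41, adjusted p = 0.12). *Lgr5*, which marks cycling follicle stem cells, was high in mixed tumors 1 and 3, at 13.20 and 8.44, and read 4.94 and 4.56 in mixed tumors 2 and 4 and 4.55 to 6.01 in the other class (2.59 ± 1.58, adjusted p = 0.345). *Cd34*, which marks both follicle stem cells and endothelium, was lower (-2.89 ± 0.57, adjusted p = 0.0139). *Edar*, the receptor of ectodysplasin in hair placodes, was highest in mixed tumor 2, at 7.60, 10.45, 6.87 and 7.06 against 4.83, 5.04, 4.71, 5.03 and 5.15 (3.04 ± 0.66, adjusted p = 0.0203, and 1.42 with the median of its probesets).

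Several of these genes were high together with their chromosomal neighbours in single tumors, and *Gli1* was so in mixed tumors 1 and 4. Each value was set against the median of the other 14 tumors, and genes were taken in RefSeq order. This description was chosen after the values were seen and has no test. Around *Gli1*, 6 of the 12 nearest measured genes were 2 or more above that median in mixed tumor 4, and 7 of 12 in mixed tumor 1, against 0 of 12 in mixed tumors 2 and 3 and in all 5 undifferentiated/spindle tumors. In mixed tumor 3 *Gli1* itself was 3.59 above the median, so there it was high without its neighbours. A stretch below is the set of genes covered by adjoining windows of 7 genes whose median deviation was 2 or more, so that genes at its edges need not be raised. In mixed tumor 4 the stretch covered 26 genes, 19 of them 2 or more above the median, from *Mon2* through the cyclin-dependent kinase *Cdk4* to *Ndufa4l2*, with a median deviation of 3.81. *Cdk4* read 14.43 in that tumor and 9.78 to 11 in the other 8. In mixed tumor 1 stretches of 15 genes around *Gli1* and of 25 genes from *Cpm* through *Mdm2*, the inhibitor of p53, *Hmga2* and *Wif1* to *Mon2* stood out, with medians of 2.26 and 2.25. *Mdm2* read 10.81 there against 8.48 to 9.58. In mixed tumor 3, 8 of the 12 neighbours of *Gli2* were 2 or more above the median, in a stretch of 15 genes. In mixed tumor 2 a stretch of 12 genes held *Edar*, and a longer one of 37 genes, from *Septin10* to *Ddx50*, had a median of 2.52. Undifferentiated/spindle tumor 2 had stretches of 21 genes from *Nudt1* to *Fscn1* and of 15 genes with *Pdgfra* and *Kit*, and undifferentiated/spindle tumor 4 one of 29 genes from *Cars2* to *Angpt2*. Some stretches are gene families, such as the granzyme and mast cell protease cluster in undifferentiated/spindle tumors 3 and 5. DNA copy number was not measured.

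**Figure D4:**
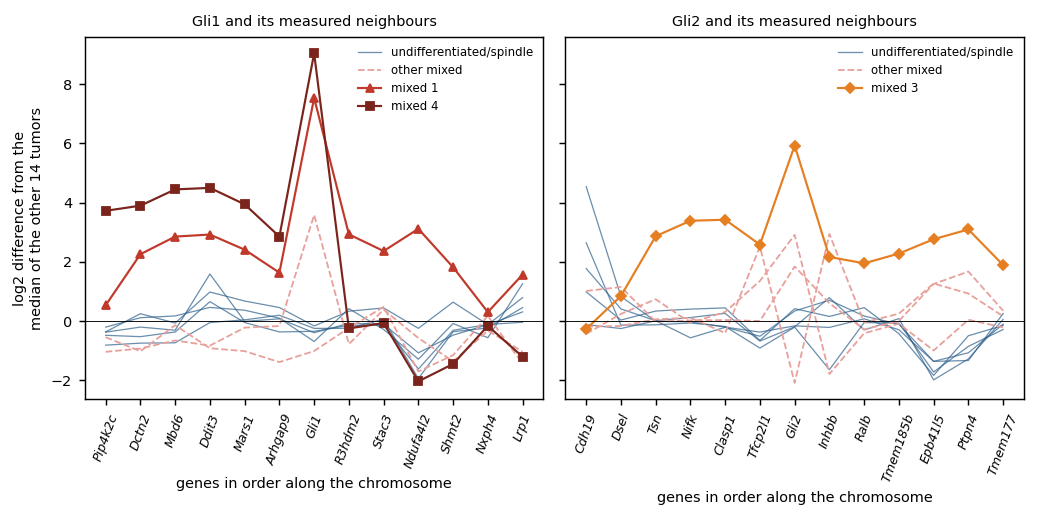
Log2 difference of each gene from the median of the other 14 tumors (vertical axis) for *Gli1* (left) and *Gli2* (right) and the 6 measured genes on each side, in order along the chromosome (not to distance). Dark red squares and red triangles are mixed tumors 4 and 1, orange diamonds mixed tumor 3, dashed lines the other mixed and blue lines the undifferentiated/spindle tumors. In mixed tumor 4 the rise ends right after *Gli1*, while in mixed tumor 1 it goes on past it.

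The mixed tumors were then placed between the other histological classes. For this, 4106 genes were taken that limma called between the 6 poorly differentiated and 5 undifferentiated/spindle tumors without the mixed tumors, 2304 higher in undifferentiated/spindle tumors (12.7%) and 1802 lower (9.90%). On a scale where the poorly differentiated mean is 0 and the undifferentiated/spindle mean is 1, the median gene lay at 0.565, 0.397, 0.634 and 0.783 in mixed tumors 1 to 4. The 5 undifferentiated/spindle tumors lay at 0.970 to 1.07 and the poorly differentiated tumors at -0.220 to 0.130, each with itself left out of the means. No mixed tumor fell in either range. The reference tumors stayed in the fit that chose the genes, which favours values of theirs near 0 and 1, and the mixed tumors did not. Falling outside the ranges is therefore no independent evidence. Genes that are lower in undifferentiated/spindle tumors lay nearer that class, at 0.687, 0.579, 0.71 and 0.952, than genes that are higher, at 0.491, 0.267, 0.545 and 0.609. The order was the same in all 4 mixed tumors, and mixed tumor 4 was close to 1 for the genes that are lower.

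**Figure D5:**
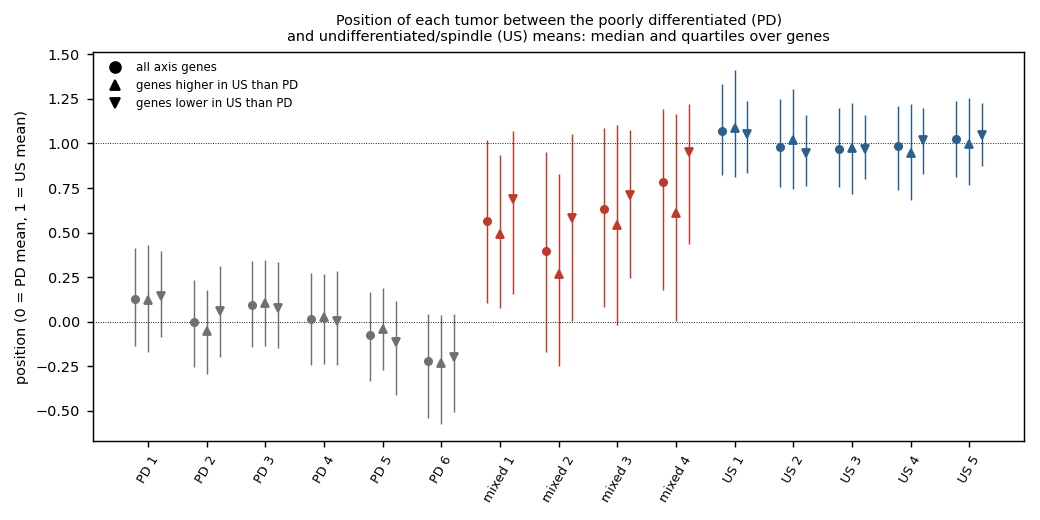
Position of each tumor (vertical axis, no unit) between the poorly differentiated (PD, 0) and undifferentiated/spindle (US, 1) means, as the median over genes with quartile bars, for all 4106 genes (circle), genes higher in US (triangle up) and genes lower in US (triangle down). The 4 mixed tumors lie between the classes with wide quartiles, from 0.397 to 0.783 over all genes, and each has its downward triangle above its upward one.

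A mean between classes did not hold for every gene. In 1 fit of all 15 tumors, 599 genes were called higher in the mixed tumors than in both other classes (3.29%) and 462 lower than in both (2.54%), and for 354 (1.95%) and 362 (1.99%) the 4 mixed tumors lay above or below all 11 others. Both comparisons use the same mixed tumors. *Mia*, *Shisa2* and *Adamts20* were among the genes above both with the smallest p. *Rflna*, a regulator of actin in cartilage, read 8.75, 8.95, 9.51 and 9.15 in the mixed tumors, 6.71, 6.73, 6.87, 7.04 and 6.95 in the undifferentiated/spindle and 6.89 to 7.17 in the poorly differentiated tumors. The imprinted noncoding RNA *Snhg14* read 6.21, 6.11, 8.16 and 7.20 against 2.82 to 3.54 and 2.91 to 3.55, and the exocytosis regulator *Stxbp6* read 9.72, 7.56, 8.52 and 9.09 against 4.43 to 5.16 and 3.74 to 4.92. On the other side lay *Procr*, the protein C receptor, at 6.98, 5.92, 6.26 and 6.19 against 8.53 to 9.18 and 9.81 to 10.89, and the early endosome tether *Eea1*, at 7.69, 7.56, 7.23 and 7.39 against 8.82 to 9.12 and 9.14 to 9.65.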

How the data were processed

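RNA from 15 skin tumors and 5 samples of wild type skin was purified on columns for fibrous tissue, its quality was read on a Bioanalyzer, and it was hybridised to Affymetrix MOE430 2.0 arrays. The authors processed all arrays by RMA (robust multi-array average, version not given in the sources used here), which corrects background, normalizes between arrays and sums up probes, and the deposited log2 values were taken as they are. The number of arrays limits the precision. Of 45101 probesets, 64 array controls were left out. A single symbol was annotated for 34945, more than 1 symbol for 932 and no symbol for 9160, and 204 of the probesets with a single symbol carry a gene identifier that has no match in the RefSeq table. Every gene was represented by its brightest probeset on average over the 20 arrays, as in the study's treatment of its signature, giving 18193 genes. The highest correlation between any 2 arrays was 0.9941 and none were identical.

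The 4 mixed and 5 undifferentiated/spindle tumors were compared by limma 3.58.1 (lmFit and eBayes, two-sided) in R 4.3.3 without covariates, with Benjamini-Hochberg adjustment over all genes, and the code was tested on simulated data. Distances were compared by a one-sided exact permutation test over all regroupings. Distances, lists and plots were computed with numpy 2.4.6, pandas 2.3.3 and matplotlib 3.10.9 under Python 3.11.15. The 52 gene lists are described by counts and medians, with no test. Named by rule are the 15 largest differences each way among called genes whose classes do not overlap, up to 4 members of each list (called members by size of change, then those with the smallest p), the EMT and epithelial genes of the study, *Rb1*, the 10 genes with the widest range among mixed tumors and up to 10 genes outside both other classes. Further members of the lists, *Bcl2*, *Edar*, *Mdm2*, *Igf2*, *Mest*, *Coch*, the cartilage collagens and the genes of neighbour stretches were named after their values were seen. The samples compared, the members and the lists were chosen with earlier results of these data known. The alternatives were a genotype covariate, other samples in the fit, 4 other tests, other scalings, probeset rules and filters, and leaving out each tumor. The methods' t-test is the equal-variance test the study names. Promoters and the order of genes came from RefSeq (GRCm38.p6). *Trp53* and the human and testing datasets were not analysed here.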

Additional observations from a re-analysis of the deposited data

Results flagged for a closer look

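A single tumor stood far from the others of its class for 25 of the 342 combinations of a named gene and a class that were tested, 11 in the mixed and 14 in the undifferentiated/spindle class. For genes not chosen by their values, chance sets a tumor apart in this way in about 1 in 20 groups. Many of the named genes were chosen for their differences, for their range among the mixed tumors or after their values were seen. They are also not independent, so the rate of 1 in 20 is no yardstick for the 25.

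Among the mixed tumors, mixed tumor 1 stood apart for *Cd24a* (11.25, others 13.10 to 13.38), *Adam19* (8.18, others 6.70 to 6.90), *Ifi209* (5.93, others 3.56 to 3.92), the neurofilament gene *Nefm* (5.71, others 3.01 to 3.38), *Mdm2* (10.81, others 8.48 to 8.75) and the activin receptor *Acvr2a* (9.67, others 8.36 to 8.46). Mixed tumor 2 did so for *Hhip* (4.43, others 11.38 to 12.47). Mixed tumor 3 was low in *Oas2* (5.92, others 6.24 to 6.27) and *Klrk1* (4.43, others 4.53 to 4.54). Mixed tumor 4 was low in *Cldn8* (3.67, others 7.87 to 8.65) and high in *Gprc6a*, a receptor for amino acids and calcium (13.10, others 4.76 to 5.08).

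Among the undifferentiated/spindle tumors, tumor 1 was low in *Gap43* (7.67, others 9.60 to 10.07), *Vegfc* (6.66, others 9.11 to 10.08) and *Col9a1* (5.14, others 5.73 to 5.95) and high in *Igf2* (10.06, others 6.80 to 7.36). Tumor 2 was low in *Bmp2* (8.73, others 10.21 to 10.72) and high in *Matn4* (5.23, others 4.95 to 5.03). Tumor 3 was high in *Hhip* (7.18, others 4.36 to 4.81). Tumor 4 was low in *Adam19* (9.48, others 10.60 to 10.82) and *Lgr4* (7.03, others 7.48 to 7.62) and high in *S100a4* (13.61, others 12.53 to 12.76) and *Itgb8* (7.64, others 5.07 to 5.74). Tumor 5 was high in *Axl* (14.05, others 11.46 to 12.12) and *Wfdc18* (10.06, others 5.55 to 6.48) and low in *Tcf7l1* (8.05, others 8.41 to 8.49).

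The difference between the classes was itself different between the genotypes for 20 of the 18193 genes (limma interaction term, adjusted p). *Cldn8* (-4.99, adjusted p = 0.0376), *Gprc6a* (8.07, adjusted p = 0.000159) and *Cdk4* (4.56, adjusted p = 0.02) were the genes named above among them. Of the 20, *Cdk4*, *Os9*, *Mettl1*, *Dtx3*, *Tsfm*, *Atp23*, *Tspan31* and *Agap2* lie in the stretch of 26 neighbouring genes described above for mixed tumor 4. They are therefore not independent of each other. Mixed tumor 4 is the lone mixed tumor of its genotype, so this tumor and the genotype cannot be told apart.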

How the results depend on the processing

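Each of the 1996 called genes that an alternative measured kept its sign in it, except that 1971 did so when the median of a gene's probesets was taken. Counts of calls were less stable. With all 20 arrays in the fit 3512 genes were called (1664 higher, 1848 lower), without the spindle cell carcinomas 868 (264, 604), with Trp53ΔEC tumors only 129 (34, 95), by the methods' t-test 1302 (457 higher), by the unequal-variance test 527 (144, 383) and without undifferentiated/spindle tumors 2 and 3, chosen after seeing the data, 637 (186, 451). Leaving out 1 tumor gave 1286 to 2206 genes (429 to 999 higher, 857 to 1207 lower) and 2204 to 3854 probesets (762 to 1759 higher, 1442 to 2095 lower) against 3669 (1472, 2197). The lowest gene count, 1286, came without undifferentiated/spindle tumor 5. With genotype as a covariate 1757 genes were called, 1539 of them shared. With each array centred on its median 717 genes were higher and 1280 lower. Of the 148 genes named and called, 102 were called with any 1 tumor left out, and 30 lost their call with the genotype covariate.

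The median difference of Notch and Hedgehog genes was 0.587 with the genotype covariate, 0.546 with median probesets, 0.428 without mixed tumors 2 and 4 (chosen after seeing the data) and 0.337 to 0.830 with 1 tumor left out. That of the Wnt genes was 0.389 with the covariate and -0.0139 without mixed tumors 2 and 4. That of T and NK cell genes was -0.791 with the covariate, -1.10 without the spindle cell carcinomas, -0.634 with Trp53ΔEC tumors only, -0.967 with array weights, -0.533 in genes above the median level, -0.751 without undifferentiated/spindle tumors 2 and 3, and -1.08 to -0.746 with 1 tumor left out. In genes above the median level the integrins gave -0.199 and the cytokines -1.02, and with Trp53ΔEC tumors only mitosis gave 0.197 and DNA replication 0.343. On genes that differ by at least 2, mixed tumor 4 lay at 0.950. With 1 tumor left out the exact permutation test of distance gave p = 0.0179 or 0.0286, the smallest possible there. With the median of a gene's probesets 16 of the 148 lost their call and 27 moved by over 1.5 times. No paired analysis was possible because the replicate numbers follow accession order and pair no samples. The causes of these changes were not tested.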

Other observations

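The genes in this section were picked from the lists after their values were seen. Of 20 Polycomb and DNA methylation genes, which silence chromatin, 4 were higher in the mixed tumors and 1 lower, beside 4.44% and 6.53% of all genes. The methylcytosine oxidase *Tet1* read 5.83, 7.65, 5.80 and 6.32 in the mixed tumors and 4.37, 4.74, 4.53, 4.50 and 4.57 in the undifferentiated/spindle tumors (1.86 ± 0.35, adjusted p = 0.0117), and it lies in a stretch of 12 neighbouring genes that was raised in mixed tumor 2, with a median deviation of 2.04. The de novo methyltransferases *Dnmt3a* and *Dnmt3b* differed by 1.69 ± 0.27 and 1.38 ± 0.23 (adjusted p = 0.00615 and 0.00656, with 0.82 for *Dnmt3a* from the median of its probesets) and the Polycomb methyltransferase *Ezh2* by 0.79 ± 0.15 (adjusted p = 0.0127). Their catalytically inactive relative *Dnmt3l* was lower (-0.96 ± 0.19, adjusted p = 0.0157). These 5 calls held with any 1 tumor left out.

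*Col2a1*, the main fibrillar collagen of cartilage, read 8.29, 7.68, 7.11 and 8.05 against 5.73, 5.66, 5.94, 5.82 and 5.54 (2.04 ± 0.23, adjusted p = 0.000995). The collagen IX chains *Col9a1* and *Col9a3* differed by 1.72 ± 0.40 and 2.81 ± 0.61 (adjusted p = 0.0277 and 0.0209). The call of *Col9a1* held only without mixed tumor 1 (adjusted p up to 0.0614) and that of *Col9a3* was lost without undifferentiated/spindle tumor 2 (adjusted p = 0.0502). *Col9a2* read 4.14, 7.35, 7.93 and 8.65 against 4.26, 4.57, 4.28, 4.04 and 4.25, with mixed tumor 1 inside the other class (2.74 ± 0.78, adjusted p = 0.0568).

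The imprinted growth factor *Igf2* read 12.98, 6.85, 14.20 and 14.27 against 10.06, 6.80, 6.99, 6.84 and 7.36, so that mixed tumor 2 was low and undifferentiated/spindle tumor 1 high (4.46 ± 1.51, adjusted p = 0.0956). Of the single exclusions, only that of mixed tumor 2 gave a call of *Igf2*. *Mest*, also imprinted, did not overlap, at 10.83, 10.74, 10.06 and 9.98 against 8.79, 8.68, 8.16, 9.66 and 8.35 (1.67 ± 0.32, adjusted p = 0.013).

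Of 22 neuronal genes 3 were lower (*Nefl*, *Nefm* and *Gap43*) and 1 higher, 13.6% and 4.55% beside 6.53% and 4.44% of all genes. The higher one was the microtubule protein *Map2*, at 7.82, 7.68, 8.17 and 7.24 against 4.44, 4.41, 5.19, 5.33 and 5.88 (2.67 ± 0.33, adjusted p = 0.00154, and 0.71 with the median of its probesets). Of 20 AP-1, Myc and immediate early genes 4 were lower and 1 higher (20% and 5%, beside 6.53% and 4.44% of all genes). *Myc* read 7.27 to 9.38 against 9.58 to 10.18, a call kept only without mixed tumor 1 or 2 (-1.49 ± 0.41, adjusted p = 0.0486, up to 0.105), while its relative *Mycl* differed by 2.44 ± 0.64 (adjusted p = 0.0414), a call kept only without mixed tumor 2 (up to 0.101) and lost with the median of its probesets (adjusted p = 0.136).

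The water channel *Aqp5* read 13.26 and *Wfdc18* 13.76 in mixed tumor 2, against 5.08 to 7.03 and 5.62 to 8.65 in the other mixed tumors. *Coch*, a secreted matrix protein, read 11.18, 4.27, 8.95 and 12.11 in mixed tumors 1 to 4, and *Rcan2*, an inhibitor of calcineurin, 7.75, 3.68, 9.80 and 12.25.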
